A study of Mus musculus with 15 samples.

Results

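Nonsense-mediated decay (NMD) transcripts are the transcripts that the GENCODE annotation, release M21 (build GRCm38, the assembly named mm10), gives the type nonsense_mediated_decay. Of the 10370 transcripts listed for the mouse cortex, 10241 were found in that annotation, 9435 of them were protein_coding, and 153 transcripts of 147 genes were of the NMD type. Male C57BL/6 mice, aged 12 weeks by the labels, received daily bouts of high-frequency head impact (HF-HI) under isoflurane, while Sham mice were anesthetized and handled without being struck, and the cortex was taken 1 month later. RNA of 7 Sham and 8 HF-HI samples was sequenced in strand-specific libraries depleted of ribosomal RNA, and the labels give no genotype or agent beyond the strain and the treatment. The cortex was homogenized whole, so fewer cells of a type and less RNA per cell cannot be told apart in any value below.

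Nonsense-mediated decay is a surveillance pathway that removes mRNAs on which translation ends too early. A stop codon well upstream of the last exon-exon junction leaves an exon junction complex (Eif4a3, Rbm8a, Magoh and Casc3) on the mRNA downstream of the ribosome that stops there, the helicase Upf1 is phosphorylated by the kinase Smg1, and the mRNA is then cut or decapped through Smg5, Smg6 and Dcp2. Many RNA-binding proteins use such transcripts to limit their own level, and in neurons the pathway also acts on mRNAs translated locally in axons and dendrites. An annotated NMD type is a prediction from the position of the stop codon and says nothing of whether a transcript was degraded in these cells.

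The place of the stop codon relative to the exon junctions is what defines these transcripts. The stop codons of Mobp and Qk are also those of an annotated coding transcript of the gene. The following windows show the last 27 coding bases in lower case with the stop codon in capitals, 5′ to 3′ on the transcript, from the GENCODE M21 transcript sequences (GRCm38). Mobp, Ppia, Ddx5 and Qk were among the most abundant NMD transcripts, Pum2, Rbmx and Tia1 were among those with the smallest p between the groups, and Smg1 is a kinase of the pathway itself.
Mobp NMD, stop: aggagcaggtcaaccccaaggaagaagTGA
Ppia NMD, stop: caaagacagcagaaaactttcgagctcTGA
Ddx5 NMD, stop: accgatgtggcctccagagggctaggtTAG
Qk NMD, stop: ttaggtatggctttcccaacgaaaggcTAA
Pum2 NMD, stop: ttgggccacaagagggcactctgcagcTAG
Rbmx NMD, stop: tacagagattcgtatgagagttatggtTGA
Tia1 NMD, stop: aggtggcattgtggagagaaaatacacTAG
Smg1 NMD, stop: atgacagagaccgaagactggctactgTAA
The stop codons lay at chr9:120173188-120173190, plus strand (Mobp), chr11:6418241-6418243, plus strand (Ppia), chr11:106783954-106783956, minus strand (Ddx5) and chr17:10214169-10214171, minus strand (Qk). Those of the others were at chr12:8699118-8699120, plus strand (Pum2), chrX:57385217-57385219, minus strand (Rbmx), chr6:86425124-86425126, plus strand (Tia1) and chr7:118210780-118210782, minus strand (Smg1). Each one was in an exon of its NMD transcript, upstream of at least 1 exon junction. Over the 151 NMD transcripts whose window could be read, the stop codon was TGA in 74, TAA in 42 and TAG in 35.

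Where an NMD transcript and a listed coding transcript of the gene shared the start of the reading frame, the place at which they parted could be read as well, and this was so for 80 NMD transcripts. The pairs below give 15 shared bases of the NMD reading frame in lower case and the bases after the split in capitals, up to the stop codon where it came first.
Pum2 NMD, split: cggggaatgggagagATGCAGAAAGAGAGT
Pum2 coding, split: cggggaatgggagagCTTTTGCCTACCAAA
Ddx5 NMD, split: cctccagagggctagGTTAG
Ddx5 coding, split: cctccagagggctagATGTGGAAGATGTGA
Tia1 NMD, split: agagtacatatgagtGTAGGTGCATTGGAG
Tia1 coding, split: agagtacatatgagtCGAACACCAAACAGC
Rbmx NMD, split: cgtatgagagttatgGTTGA
Rbmx coding, split: cgtatgagagttatgGTAAGATACCGGTTA
Qk NMD, split: ccagtggtgtgttagGTATGGCTTTCCCAA
Qk coding, split: ccagtggtgtgttagAGTGGATTGAAATGC
In 68 of the 80 both transcripts were spliced at the split, to different exons or splice sites. The NMD transcript ran on into bases that the coding transcript removed in 7, among them Ddx5, an RNA helicase, and Tia1, a stress granule RNA-binding protein. In Ddx5 the reading frame ended with the TAG inside the first 5 bases past the split. The coding transcript ran on where the NMD transcript was spliced in 5, among them Rbmx, an RNA-binding splicing regulator. In Pum2, a Pumilio repressor of translation, and in Qk, the quaking RNA-binding protein of myelinating cells, both were spliced at the split.

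By annotation 152 of the 153 NMD transcripts (99.3%) had an exon junction at least 50 bases after the stop codon, and the exception was Arhgap23, at 35 bases. Among the 9369 listed protein_coding transcripts with an annotated stop codon, 38 (0.406%) had such a junction. This separation is what the annotation uses to set the type, so it is a description and was not tested. The last junction lay a median of 840 bases after the stop codon in the NMD transcripts and 141 bases before it in the coding ones. The range over the NMD transcripts was 35 to 10397 bases, the highest in Smg1. A single junction followed the stop codon in 31 NMD transcripts, 2 junctions in 18 and 3 or more in 104.

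**Figure D1:**
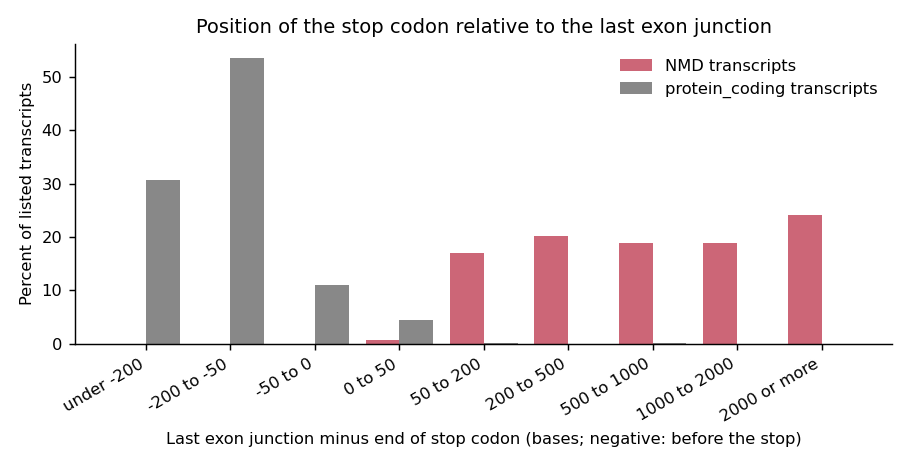
Bars give the percent of the 153 NMD transcripts and of the 9220 listed protein_coding transcripts with at least 2 exons and an annotated stop codon, by the distance in bases from the end of the stop codon to the last exon junction (negative where the junction came first). The NMD transcripts lie at 50 bases or more but for 1, and the coding transcripts lie almost wholly below 50 bases.

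The reading frames of the NMD transcripts were short, with a median of 492 bases against 1608 in the listed coding transcripts, and their 3′ untranslated regions were long, with a median of 2593 bases against 1381. In 80 of them the stop codon lay inside exons of an annotated coding transcript but in another frame or position, and the frame was a median of 24.2% of the longest coding frame of the gene. The stop codon lay in sequence outside all coding-transcript exons in 48, such as Pum2, Ddx5, Tia1 and Rbmx, and the frame was a median of 24.5% of the longest. A further 18 ended at the same stop codon as an annotated coding transcript and kept a median of 93.9% of the longest frame. In these the junction that defines the type was an intron in the 3′ untranslated region, as in Mobp, Qk, Pgm2l1, Snapc3 and Naa60. The remaining 7 belonged to genes without an annotated coding transcript. The annotation gave its best support level to 92 NMD transcripts and its lowest to 46, and it marked 8 as readthrough transcripts and 25 as lacking the start of the frame.

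The libraries held 3496103 to 10582858 reads on the listed transcripts. All values below are normalized counts, reads divided by the size factor of the library, recovered from the deposited variance-stabilized (VSD) values. Size factors ran from 0.818 to 1.47 in Sham and 0.501 to 1.22 in HF-HI, so the HF-HI libraries were on the whole shallower. Library HF-HI 2 stood apart on the first principal component (12.6 against −3.35 to 0.721). Of the markers looked for, 10 of 10 neuronal, 5 of 5 astrocyte and 5 of 5 oligodendrocyte genes were listed, and their summed levels overlapped between the groups. The choroid plexus gene Ttr ran from 35.0 to 6685 normalized counts in Sham and 21 to 8663 in HF-HI, with high and low libraries in both groups. The summed striatal markers (6 of 7 listed) were 5453 to 8399 in Sham and 3935 to 7619 in HF-HI. Nothing in the labels says more of a library than its group and number, and none that the samples came from separate mice, so the p-values measure only the spread between these samples, which may be technical.

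NMD transcripts were listed at levels below those of coding transcripts. Their median was 255 normalized counts (118 to 4710), with quartiles of 168 and 444, against a median of 329 for protein_coding, 187 for retained_intron and 203 for processed_transcript. Per kilobase of transcript, which allows levels of different transcripts to be compared, the medians were 73.7 for NMD, 96.0 for protein_coding, 55.8 for retained_intron and 82.7 for processed_transcript. The lowest mean of any listed transcript was 108 normalized counts, so NMD transcripts below that level are not in these medians. All listed NMD transcripts together held 0.880 ± 0.0252% of the listed counts in Sham (0.856 to 0.932, median 0.875, n = 7) and 0.894 ± 0.0246% in HF-HI (0.859 to 0.935, median 0.895, n = 8). The groups overlapped, and the difference of 0.0147 percentage points was smaller than the SD of either group. The Sham SD includes library Sham 3, at 0.932%, against 0.856 to 0.885% in the other Sham libraries. With 1 library left out the difference ran from 0.00886 to 0.0234 percentage points. In each group the shallowest library held the highest share, Sham 3 (size factor 0.818) and HF-HI 4 (0.501, share 0.935%). The part of depth in the share was not tested. Per length the share was 0.640 ± 0.0255% in Sham and 0.660 ± 0.0315% in HF-HI.

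The 10 most abundant NMD transcripts held 29.2% of all NMD counts. Mobp-204 (ENSMUST00000174193, chr9:120149742-120181484, plus strand), from the gene of a structural protein of compact myelin, was the highest in counts, with 4252 to 5435 normalized counts (median 4578) in the Sham libraries and 4299.9 to 5147 (median 4879) in the HF-HI libraries. Ppia-201 (ENSMUST00000090749), from the cyclophilin A gene, followed with 2053 to 3298 normalized counts (median 2957) in the Sham libraries and 1836 to 3093 (median 2623) in the HF-HI libraries, and per kilobase it was the highest of all at 3617, against 1805 for Mobp. Neither separated the groups.

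Of the other eight, Rap1gap2, which encodes an activator of the Rap1 GTPase, averaged 1833 normalized counts, Ddx5 1714, Pgm2l1, a glucose-1,6-bisphosphate synthase, 1505, and Ank3, the ankyrin of the axon initial segment, 1260.4. Ndrg4 averaged 1256, Pip5k1c, a kinase that makes the lipid PIP2 at synapses, 1131, Qk 1119 and the membrane protein gene Ttyh1 1065. Their evenness between libraries differed widely. Rap1gap2 was 1769.6 to 1855 normalized counts (median 1818) in the Sham libraries and 1672 to 2188 (median 1785) in the HF-HI libraries, a narrow spread in Sham. Ndrg4 was 681 to 2408 normalized counts (median 1094) in the Sham libraries and 946 to 1715 (median 1239) in the HF-HI libraries, a more than 3-fold spread within Sham alone. In all 10 the ranges of the groups overlapped, and only Qk had an unadjusted p under 0.05 between them.

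Relative to the coding transcripts of the same gene, the NMD transcript was usually the smaller part. For 113 NMD transcripts of 108 genes at least 1 of 176 protein_coding transcripts of the gene was listed. The NMD transcript held a median of 27.1% of the summed NMD and coding counts (2.42 to 93.9%, quartiles 17.7 and 43.3%), or 29.5% per length (4.99 to 84.5%). It was above 50% in 19 (33 per length) and under 10% in 13 (11 per length). Of the other 40, 35 were the one listed transcript of their gene, so that the gene was represented here by an NMD transcript alone.

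The highest share was that of Mobp, 93.9% by counts and 84.5% per length, where 2039 bases of the NMD transcript lay outside the exons of its 2 listed coding transcripts. Rap1gap2 followed at 79.3%, Ankfy1, an endosomal protein, at 72.6%, Cbarp, a regulator of calcium channels, at 71% and Slc4a3, an anion exchanger, at 69.7%. At the other end stood Hsp90ab1, a heat shock chaperone, at 2.42%, Frrs1l, which takes part in AMPA receptor assembly, at 2.64%, and Huwe1, a ubiquitin ligase, at 2.94%. Strbp, an RNA-binding protein, was at 3.58% and Arpp19, a regulator of the phosphatase PP2A, at 4.63%. Per length the lowest share was that of Frrs1l, at 4.99%.

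**Figure D2:**
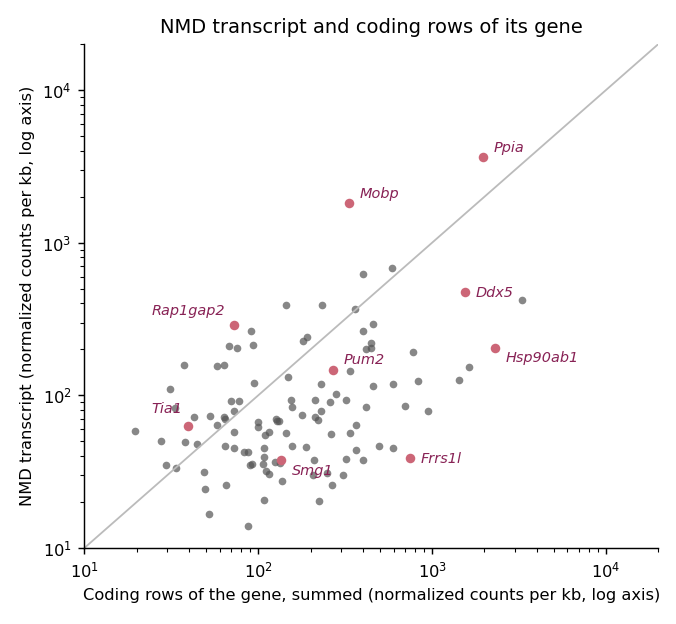
Each of the 113 points is 1 NMD transcript, with its level in normalized counts per kilobase on the y axis and the summed level of the listed coding transcripts of its gene on the x axis, as means over 15 libraries on log axes, and the grey line marks equal levels. Most points lie below the line, and Mobp and Ppia lie above it at high levels.

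Reads can be given to an NMD transcript with certainty only where its sequence or its exon junctions differ from those of the coding transcripts. In 24 of the 113, no base lay outside the exons of the listed coding transcripts of the gene, so only exon junctions or transcript ends set them apart. In 56 fewer than 100 bases did, and the median was 105 bases. Ttyh1, Gpcpd1, Senp6, Smg1, Frrs1l and Arpp19 had 0 such bases, Camsap1 and Hsp90ab1 3, and Ppia 5. Mobp had 2039, Ddx5 1265, Rbmx 1121 and Qk 3555.

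NMD transcripts varied between libraries more than coding transcripts did. The median coefficient of variation (CV, the SD as a percent of the mean over the 15 libraries) was 22.2% for the NMD transcripts and 11.4% for the protein_coding ones. Where the NMD transcript was the one listed transcript of its gene, the median was 13.1% (35 transcripts), and where the gene had other listed transcripts it was 25% (118). The same held for coding transcripts, at 9.10% alone (5908) and 21.2% with others (3527). Among transcripts below the upper quartile of NMD abundance and with other listed transcripts of the gene, the medians were 27.1% for NMD (87) and 27.5% for coding (2113). Under the same upper limit and alone in their gene, they were 13.6% for NMD (28) and 10.9% for coding (3766). Abundance was limited but not matched, and no test was run on these medians.

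The sum of all listed transcripts of a gene was far steadier than its parts. Over the 113 NMD transcripts with a coding partner, the median CV was 25.4% for the NMD transcript, 12.6% for the summed coding transcripts and 5.95% for the gene. The gene's CV was under both others in 106 of 113, and the NMD CV was above the coding one in 89. In 100 of the 108 genes the variance of the sum was smaller than the summed variances of its transcripts, with a median ratio of 0.296. On balance the estimated counts of the transcripts of one gene thus moved against each other between libraries. These estimates divide the reads that transcripts share, and the part of that division in the opposed movement was not tested. Pgm2l1 was the other way, with a ratio of 1.51 and an NMD share of 32.4 ± 0.495% in Sham and 31.9 ± 1.73% in HF-HI. The CV of an NMD transcript was over 50% in 16, and 8 had a library with 0 reads.

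**Figure D3:**
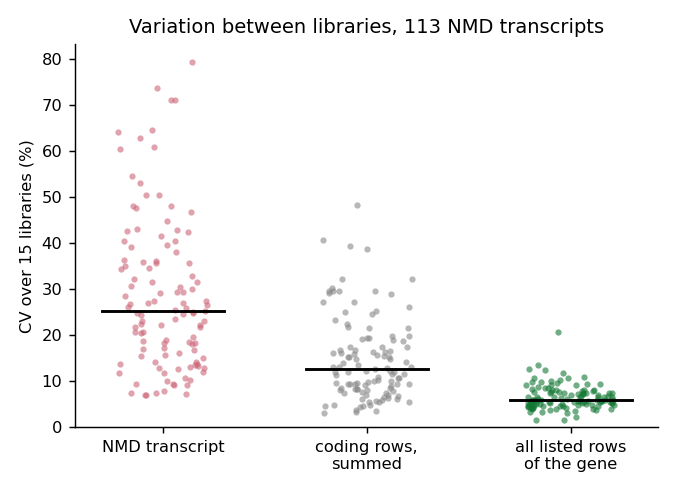
Points give the CV over 15 libraries, in percent, of the 113 NMD transcripts with a listed coding transcript, of the summed coding transcripts and of all listed transcripts of the gene, with the median as a bar. The medians step down from 25.4% to 12.6% and 5.95%.

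Between HF-HI and Sham, 14 of the 153 NMD transcripts (9.15%) had an unadjusted p under 0.05 in limma's fit to the VSD values of all transcripts, against 8.83% of all 10370. Of these, 10 were higher in HF-HI (background 4.94%) and 4 lower (background 3.9%). None passed a Benjamini-Hochberg adjusted p of 0.1 over all transcripts, and neither did any of the 10370. The study itself reported significantly changed genes at 1 month with DESeq2, a test that was not repeated here. The smallest adjusted p of an NMD transcript was 0.319 and of any transcript 0.206. The share of NMD transcripts called was thus near the background, and the 14 are described below as values and not as changes. With voom on the recovered reads the count was 13, 7 higher and 6 lower. The ranges of the 2 groups overlapped in all 153 NMD transcripts, and 0.154% of all transcripts had ranges apart. The median log2 ratio of HF-HI to Sham was 0.0037 for NMD transcripts and −0.0019 for all, with 79 NMD transcripts higher and 74 lower in mean and a range from −0.64 to 0.92. Without library HF-HI 2, 10 NMD transcripts had a p under 0.05, 7 higher and 3 lower, all among the 14. With the log2 size factor of the library as a covariate, 6 NMD transcripts had a p under 0.05, and 4 of the 14 were among them (Pum2, Snapc3, Naa60 and Qk). Depth differed between the groups and its part in the other 10 cannot be told apart from theirs.

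**Figure D4:**
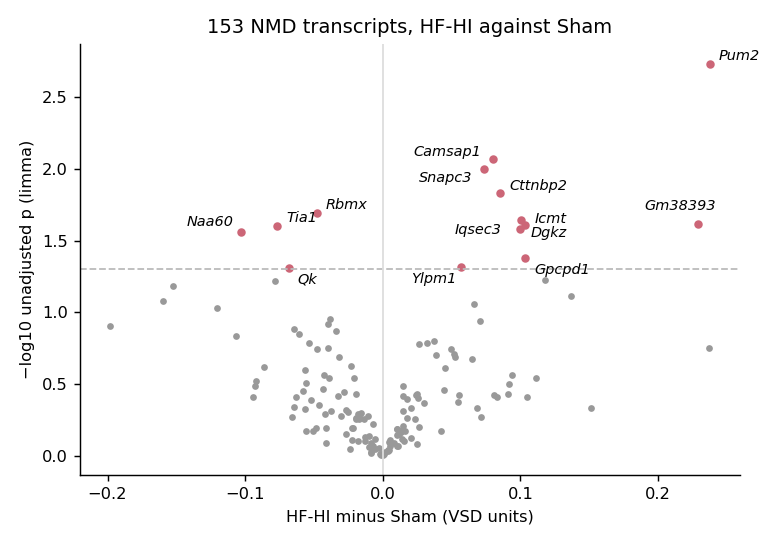
Each point is 1 of the 153 NMD transcripts, with the difference HF-HI minus Sham in VSD units (a compressed log2 scale) on the x axis and −log10 of limma's unadjusted p on the y axis, and the dashed line marks the threshold of 0.05. The 14 above the line are named, 10 to the right of 0 and 4 to the left.

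Pum2-207 (ENSMUST00000165293, chr12:8674275-8752557, plus strand) had the smallest p of the NMD transcripts. It was at 489.8 to 901 normalized counts (median 755) in the Sham libraries and 774 to 1486 (median 991) in the HF-HI libraries. All 8 HF-HI libraries were above the Sham median, and the ranges overlapped. The means were 739 ± 154 in Sham and 1069 ± 211 in HF-HI, a log2 ratio of 0.53 (adjusted p = 0.319, 0.273 to 0.959 over the alternatives). It had an unadjusted p under 0.05 in all 24 alternatives, the fit with the size factor as a covariate among them.

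The coding transcripts of Pum2 lay the other way. Their sum was 1759 ± 237 in Sham and 1485 ± 243 in HF-HI, and the most abundant of the 3, ENSMUST00000178015, was at 1192 ± 237 in Sham and 841 ± 168 in HF-HI (adjusted p = 0.338). All listed transcripts of the gene together came to 2497 ± 119 in Sham and 2555 ± 158 in HF-HI, with a CV of 5.52% against 27.1% for the NMD transcript. The NMD share of Pum2 was 29.8 ± 6.89% in Sham and 41.9 ± 8.3% in HF-HI. The NMD and coding sequences part after 51 shared bases of the NMD reading frame, as printed above, and the NMD transcript has 199 bases outside the listed coding exons.

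Among the others higher in HF-HI, Camsap1, a protein of microtubule minus ends, was at 406 to 526 normalized counts (median 435) in the Sham libraries and 467 to 623 (median 543) in the HF-HI libraries. All 8 HF-HI libraries were above the Sham median, and the means were 461 ± 49.4 in Sham and 541 ± 54.6 in HF-HI (adjusted p = 0.408). Its coding sum was 652 ± 42.3 in Sham and 594 ± 83.6 in HF-HI, and with the size factor as a covariate its unadjusted p was above 0.05. Snapc3, a subunit of the complex that starts small nuclear RNA transcription, had no listed coding transcript and was at 109.7 to 187 normalized counts (median 141) in the Sham libraries and 146 to 225 (median 189) in the HF-HI libraries. Its 8 HF-HI libraries were all above the Sham median as well, with means of 149.8 ± 29.5 in Sham and 189.8 ± 22.9 in HF-HI (adjusted p = 0.415), and p stayed under 0.05 in the 23 alternatives that tested it.

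Cttnbp2, a protein of dendritic spines, also had no listed coding transcript. It was at 249 to 439.9 normalized counts (median 371) in the Sham libraries and 372 to 533 (median 426) in the HF-HI libraries, and the log2 ratio was 0.27 (adjusted p = 0.450). Icmt, the methyltransferase that finishes prenylated proteins, was at 83.2 to 238 normalized counts (median 136) in the Sham libraries and 152 to 289 (median 192) in the HF-HI libraries, with a log2 ratio of 0.48 (adjusted p = 0.507) that lost p under 0.05 without Sham 3, HF-HI 6 or HF-HI 7. In both, all 8 HF-HI libraries were above the Sham median, and the ranges overlapped.

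Dgkz, a diacylglycerol kinase, was at 129 ± 22.8 in Sham and 186 ± 55.8 in HF-HI (adjusted p = 0.497, 7 of 8 above the Sham median), and Iqsec3, an exchange factor of inhibitory synapses, at 295 ± 58 in Sham and 375 ± 72.3 in HF-HI (adjusted p = 0.514, 7 of 8). The coding transcript ENSMUST00000151397 of Iqsec3 was higher in HF-HI too, at 117 ± 29 in Sham and 193 ± 59 in HF-HI (adjusted p = 0.351). The more abundant coding transcript of Iqsec3, ENSMUST00000046373, lay the other way, at 429 ± 204 in Sham and 300 ± 48.4 in HF-HI (adjusted p = 0.650). Gpcpd1, a glycerophosphocholine phosphodiesterase, was at 137 ± 34.9 in Sham and 196 ± 67.7 in HF-HI (adjusted p = 0.554). All 3 had 1 or 2 HF-HI libraries below the Sham median, and an unadjusted p above 0.05 came with leaving out Sham 2, Sham 7, HF-HI 2 or HF-HI 4 for Iqsec3 and any of 7 libraries for Gpcpd1 (Sham 3, 4, 5 or 6, HF-HI 2, 5 or 6). Gm38393, a predicted gene without a coding transcript, was at 0 to 264 normalized counts (median 100.3) in the Sham libraries and 93.7 to 340.0 (median 187) in the HF-HI libraries, and its p was above 0.05 without Sham 1. The tenth, Ylpm1, chosen after its values were seen, was at 354 ± 32.6 in Sham and 404 ± 51.5 in HF-HI (adjusted p = 0.561), and of the fits with 1 library left out, its p stayed under 0.05 in those without Sham 6, Sham 7 or HF-HI 3.

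All 4 NMD transcripts lower in HF-HI with p under 0.05 overlapped Sham in range. Rbmx, an RNA-binding splicing regulator, was at 116 to 166 normalized counts (median 149) in the Sham libraries and 102 to 149 (median 125) in the HF-HI libraries, with all 8 HF-HI libraries below the Sham median. Its means were 149 ± 16.5 in Sham and 125 ± 14.9 in HF-HI (adjusted p = 0.483), while its coding sum was 174 ± 21.4 in Sham and 185 ± 33.7 in HF-HI. Tia1 was at 275 to 341 normalized counts (median 288) in the Sham libraries and 192 to 357 (median 238) in the HF-HI libraries, 7 of 8 HF-HI libraries being below the Sham median (adjusted p = 0.510). Without Sham 2, Sham 4, HF-HI 1 or HF-HI 2 its p was above 0.05. The listed coding transcript of Tia1 was lower in mean too, at 185 ± 38.6 in Sham and 169 ± 38.5 in HF-HI. All 5 listed transcripts of Tia1 together came to 1092 ± 51.6 in Sham and 999 ± 84.1 in HF-HI, so the lower mean was not confined to the NMD transcript.

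Qk was at 1126 to 1267 normalized counts (median 1160.2) in the Sham libraries and 933 to 1316 (median 1007) in the HF-HI libraries, so that the Sham libraries were tightly grouped and the HF-HI ones lay on both sides (adjusted p = 0.562). Leaving out any of 11 of the 15 libraries, all but Sham 4, HF-HI 2, HF-HI 4 and HF-HI 8, took its p above 0.05. The coding sum of Qk was 5262 ± 348 in Sham and 5146 ± 298 in HF-HI, and its NMD share 18.3 ± 1.49% in Sham and 17.2 ± 1.92% in HF-HI. Naa60, an acetyltransferase of the Golgi, was at 313 to 443 normalized counts (median 386) in the Sham libraries and 205 to 429 (median 301) in the HF-HI libraries (adjusted p = 0.514, 6 of 8 below the Sham median), with a p above 0.05 without Sham 2, Sham 3, HF-HI 7 or HF-HI 8. The second NMD transcript of Naa60, ENSMUST00000115860, was at 109 ± 90 in Sham and 166 ± 102 in HF-HI, in the other direction.

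The next 4 by p among those lower in HF-HI had an unadjusted p above 0.05. Hsp90ab1 was at 165 ± 41.5 in Sham and 125 ± 35.8 in HF-HI (adjusted p = 0.587), with all 8 HF-HI libraries below the Sham median. Wdr13 was at 199 ± 67.5 in Sham and 128 ± 81.9 in HF-HI (adjusted p = 0.594), Senp6, a SUMO protease, at 204 ± 59 in Sham and 136 ± 87 in HF-HI (adjusted p = 0.609), and Cul2, a ubiquitin ligase scaffold, at 235 ± 58.6 in Sham and 171 ± 74.1 in HF-HI (adjusted p = 0.627).

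**Figure D5:**
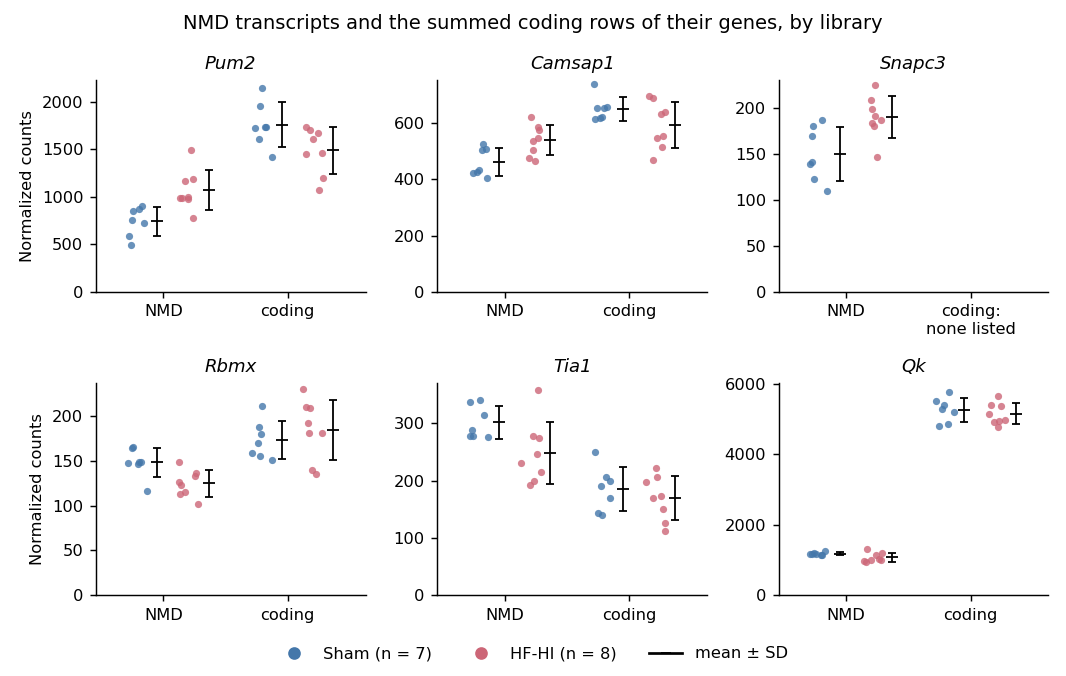
Normalized counts in each of the 7 Sham and 8 HF-HI libraries for 6 NMD transcripts and the summed coding transcripts of their genes, with mean ± SD beside the points. Pum2 and Camsap1 NMD transcripts sit higher in HF-HI and their coding sums sit lower in mean, Rbmx, Tia1 and Qk NMD transcripts sit lower, Snapc3 has no listed coding transcript, and the groups overlap in every panel.

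Of the 176 listed coding transcripts of the genes with NMD transcripts, 13 had p under 0.05 (7.39%, against the 8.83% of all transcripts), 7 higher and 6 lower. Iqsec3 and Pum2 were the genes in which both an NMD and a coding transcript did. The 13 were chosen here for their p. Arpp19 ENSMUST00000170310 was at 239 ± 32.1 in Sham and 86.9 ± 102 in HF-HI (adjusted p = 0.293), Nrxn3, a presynaptic adhesion molecule, ENSMUST00000057634 at 155 ± 24.5 in Sham and 267 ± 77.4 in HF-HI (adjusted p = 0.319), and Pde10a, the striatal phosphodiesterase, ENSMUST00000089085 at 2560.2 ± 358 in Sham and 1821 ± 419.6 in HF-HI (adjusted p = 0.311). Pde10a is one of the striatal markers whose summed levels are given above, and their part in its difference was not tested. None of the 13 passed the adjusted threshold.

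The ratio of an NMD transcript to the summed coding transcripts of its gene asks whether the balance within a gene differed between the groups. It was fitted with limma as log2((NMD + 10) / (coding + 10)) in normalized counts, together with the same ratio for all 554 listed non-coding transcripts with a coding partner. Of the 113 NMD ratios, 4 had p under 0.05 (3.54%, against 9.57% of the 554), all 4 higher in HF-HI (background 7.58%) and none lower (background 1.99%). The 0 lower depended on single libraries, since 3 were lower without Sham 2, HF-HI 3, HF-HI 4 or HF-HI 5 and 4 without HF-HI 8. None passed an adjusted p of 0.1 (smallest 0.354), a threshold that 4 of the 554 passed (0.722%).

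The 4 were Pum2, with 0.78 ± 0.25 (SE) on the log2 scale (adjusted p = 0.354), Camsap1, with 0.37 ± 0.14 (SE) on the log2 scale (adjusted p = 0.488), Gpcpd1, with 0.67 ± 0.26 (SE) on the log2 scale (adjusted p = 0.488), and Icmt, with 0.62 ± 0.29 (SE) on the log2 scale (adjusted p = 0.511). The NMD share of Gpcpd1 was 17.9 ± 3.66% in Sham and 26.7 ± 8.63% in HF-HI, that of Icmt 23.5 ± 8.39% in Sham and 32 ± 8.16% in HF-HI and that of Camsap1 41.4 ± 2.6% in Sham and 47.8 ± 5.67% in HF-HI. In these 4 genes the mean gene sums differed by less than the SD of either group, at 1107 ± 101 in Sham and 1069 ± 104 in HF-HI for Gpcpd1 and 626 ± 38 in Sham and 636 ± 35.5 in HF-HI for Icmt. With the size factor as a covariate, the ratio had a p above 0.05 in all 4. The Icmt ratio lay closest to the threshold and had a p above 0.05 in 13 of its 21 alternatives, among them the fits without Sham 1, 2, 3, 4 or 6 or without HF-HI 1, 3, 4, 6, 7 or 8. The ratios with the smallest p in the other direction were those of Hsp90ab1, Rbmx, Kif21b, Wdr13 and Mobp, with adjusted p-values from 0.513 to 0.530. The Mobp share was 94.4 ± 0.787% in Sham and 93.5 ± 0.971% in HF-HI, and its coding sum 276 ± 41.6 in Sham and 328 ± 47 in HF-HI.

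The nonsense-mediated decay pathway was represented by 35 listed transcripts of 27 of the 36 machinery genes in the list used. In the surveillance core the means differed by less than the SD of either group. Upf1 was at 479.5 ± 31.4 in Sham and 503 ± 49.2 in HF-HI (adjusted p = 0.792), Upf2 at 387 ± 37.1 in Sham and 402 ± 24.7 in HF-HI (adjusted p = 0.820) and the coding transcript of Smg1 at 2130.3 ± 243 in Sham and 2102 ± 293 in HF-HI (adjusted p = 0.965). The decay factors Smg5, Smg6, the decapping enzyme Dcp2 and the exonuclease Xrn1 had log2 ratios of −0.012, −0.019, 0.015 and 0.011.

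Of the 35, 2 (5.71%) had p under 0.05, against 8.83% of all transcripts, both lower in HF-HI (background 3.9%). Eif4a3, the helicase that anchors the exon junction complex, was at 328 ± 33.4 in Sham and 298 ± 14.8 in HF-HI (adjusted p = 0.561), and Ppp2ca, the catalytic subunit of the phosphatase that acts on Upf1, at 2894 ± 89.8 in Sham and 2756 ± 101 in HF-HI (adjusted p = 0.506). The smallest adjusted p of the 35 was 0.506, and without Sham 6 or with the size factor as a covariate none had p under 0.05. The median log2 ratio of the 35 was −0.0034, against −0.0019 for all transcripts.

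The one NMD transcript of a machinery gene was Smg1-204 (ENSMUST00000179331, chr7:118134047-118212970, minus strand), whose frame ends after 175 bases with 59 junctions to follow. It was at 0 to 751 normalized counts (median 416) in the Sham libraries and 102 to 863 (median 527) in the HF-HI libraries, with 0 reads in library Sham 1. The means were 369 ± 253 in Sham and 532 ± 236 in HF-HI (adjusted p = 0.716), a wide spread in both groups, and no base of it lies outside the listed coding exons. The gene sum was 2499.6 ± 97.3 in Sham and 2634 ± 131 in HF-HI.

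By function, 7 NMD transcripts belonged to the RNA binding and splicing list (Ddx5, Qk, Son with 2, Tia1, Rbmx and Srsf6), with 0 higher (background 4.94%) and 3 lower (background 3.9%) at p under 0.05 and a median log2 ratio of −0.14. The 3 are Qk, Tia1 and Rbmx, described above. The list was drawn up with earlier results of these data known, so the count is not independent evidence of a direction. It also left out Pum2, which was higher in HF-HI with p under 0.05, and Strbp, which was not among the 14, so the counts hold for this list only. Ddx5 was at 1661 ± 158 in Sham and 1759 ± 244 in HF-HI, Srsf6, a splicing factor, at 119.5 ± 30.6 in Sham and 121 ± 30.5 in HF-HI, and the splicing cofactor Son at 809.9 ± 55.4 in Sham and 792 ± 60.2 in HF-HI (ENSMUST00000147891) and 569.5 ± 223 in Sham and 401 ± 187 in HF-HI (ENSMUST00000140312). None of these differed by more than the spread between libraries.

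The 5 NMD transcripts of the synaptic list used (Gria3, Nrxn3, Napb, Dlg1 and Erc1) had 0 with p under 0.05 and a median log2 ratio of 0.0195. That list is not complete. It held neither Cttnbp2 nor Iqsec3, whose NMD transcripts described above were higher in HF-HI with p under 0.05, nor Frrs1l, which was not among the 14. Gria3, an AMPA receptor subunit, was at 535 ± 112 in Sham and 527 ± 131 in HF-HI, and Dlg1, a scaffold of the postsynapse, at 230.0 ± 126 in Sham and 174 ± 119 in HF-HI. Napb ranged from 30.6 to 647 in Sham and 12 to 886 in HF-HI. The 3 of the translation list (Rpl12, Eef1b2 and Gtpbp4) and the 5 of the ubiquitin and chaperone list (Usp7, Ube3b, Dnajc5, Hsp90ab1 and Huwe1) also had 0. Their median log2 ratios were −0.0130 and −0.0594. No NMD transcript of the 63 mitochondrial genes in the list used was among those listed. Mitochondrial genes outside that list did have them, such as Atp5f1 at 686 and Slc25a12 at 264 normalized counts per kilobase.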

How the data were processed

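RNA of whole cortex was measured in 7 Sham and 8 HF-HI samples, grouped by their titles. The authors aligned reads with STAR to mm10, estimated counts per transcript with eXpress, which divides reads shared between transcripts by their estimated abundance, and deposited variance-stabilized values on a log2 scale from DESeq2. Tool versions are not given in the sources used here. The transform was inverted from its smallest value: with the size factors recovered, 100% of values were whole reads within 0.1. A doubling moves VSD by 0.195 from 100 counts, 0.326 from 300 and 0.531 from 1000, so VSD differences understate changes of low transcripts, and levels are given as normalized counts.

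Counts as such were not the deposited unit, and the main fit was made on the VSD values. The study's DESeq2 test was not run on the recovered reads. VSD values of all 10370 transcripts were fitted with limma 3.58.1 (R 4.3.3) with a mean-variance trend, group alone, two-sided, and Benjamini-Hochberg adjustment over all of them. Calls used an unadjusted p of 0.05 and an adjusted p of 0.1. Ratios to coding transcripts used a pseudocount of 10 normalized counts. Types, exons and stop codons came from GENCODE M21, with 129 transcripts unmatched, and the annotation release the authors used is not stated. Transcripts named are the 10 most abundant, the 8 smallest p in each direction, the 5 highest and 5 lowest shares, the 5 smallest p of the ratio in each direction and those of machinery genes. Members, lists and this rule were chosen with earlier results of these data known.

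On simulated data with 200 of 10370 transcripts changed by a log2 of 0.5, the fit called 136 of them and 14 others at an adjusted p of 0.1, and with none changed it called 0. The ratio fit called 13 of 40 changed by 0.5 and 4 others. With none changed, 7.22% of the ratios and 4.98% of the transcripts had an unadjusted p under 0.05. Each transcript was drawn independently, so the opposed movement of the estimated counts within one gene was not simulated. These figures may therefore not hold for the ratios. No 2 libraries agreed within sampling noise. Alternatives were the scaling, filters, depth covariate, pseudocount, voom on recovered reads, a replicate block and each library left out.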

Additional observations from a re-analysis of the deposited data

Results flagged for a closer look

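Among 72 groups of values examined, 4 held a library far from the others of its group by Dixon's criterion. Chance flags about 1 in 20 groups. The Ddx5 NMD transcript was at 2305 normalized counts in library HF-HI 2, against 1534 to 1829 in the other HF-HI libraries, and HF-HI 2 is the library that stood apart on the first principal component. The Cttnbp2 NMD transcript was at 249 in Sham 6, against 364 to 440 in the other Sham libraries, which is the group that was lower in mean. The Rbmx NMD transcript was at 116 in Sham 2, against 147 to 166 in the others, while Sham was the group higher in mean. The NMD transcripts held 0.932% of the listed counts in Sham 3, against 0.856 to 0.885% in the other Sham libraries.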

How the results depend on the processing

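No NMD transcript passed an adjusted p of 0.1 under any of the 24 alternatives, and no NMD ratio under any of 22. The number of NMD transcripts with p under 0.05, 14, was 8 of 99 with a mean of at least 200 normalized counts and 6 with the size factor as a covariate (cause not tested), and 10 to 17 with a library left out. Of the 14, 6 were kept in every fit with a library left out, 10 without HF-HI 2 and 11 with voom. The ratios with p under 0.05, 4, were 2 with a mean of at least 200 and 3 to 9 with a library left out (7 without Sham 2, 7 without HF-HI 3, 9 without HF-HI 4, 8 without HF-HI 5 and 9 without HF-HI 8). The machinery transcripts, 2, were 0 with the size factor as a covariate and 0 to 3 with a library left out (0 without Sham 6, and 1 without each of Sham 1, 2, 7 and HF-HI 1, 4, 5, 6, 7, 8). The NMD share difference stayed between 0.00886 and 0.0234 percentage points with a library left out.

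Same-numbered Sham and HF-HI libraries share only a number: their deviations correlated at −0.138 to 0.0905, with 0 of 7 over 0.1. With that number as a replicate block, 18 NMD transcripts (12 of the 14), 10 ratios (7 higher and 3 lower) and 1 machinery transcript had p under 0.05.

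Differences near 0 in VSD units turned. With the size factor as a covariate Mobp was at −0.000429, Pgm2l1 −0.0187, Ndrg4 −0.0514, Ttyh1 −0.00245 and Smg1 −0.0461, and with the block Mobp was at −0.00296. With a library left out Mobp ran from −0.0136 to 0.0310, Rap1gap2 from −0.00683 to 0.0259, Pgm2l1 from −0.000792 to 0.0302 and Ndrg4 from −0.0362 to 0.120. The cause was not tested.
Depth limits these values most where an NMD transcript is low: the lowest mean was 126 reads, and 8 had a library at 0 reads.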

Other observations

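There were 6 genes with 2 listed NMD transcripts. Adarb1, an RNA editing enzyme, had ENSMUST00000144547 at 471 ± 112 in Sham and 419.9 ± 123 in HF-HI normalized counts and ENSMUST00000105404 at 407 ± 104 in Sham and 413 ± 80.8 in HF-HI. Zfp207 had ENSMUST00000178665 at 356 ± 58.5 in Sham and 336 ± 59.9 in HF-HI and ENSMUST00000123726 at 274 ± 23.4 in Sham and 244 ± 59 in HF-HI. The second transcripts of Dgkz (ENSMUST00000142231) and Iqsec3 (ENSMUST00000152103) were at 308 ± 227 in Sham and 419 ± 292 in HF-HI and at 488 ± 208 in Sham and 548 ± 45.6 in HF-HI, higher in mean in HF-HI like the ones described for these genes, with adjusted p-values of 0.867 and 0.799. The fifth and sixth were Naa60 and Son.

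A library with 0 reads occurred for the NMD transcripts of Smg1 (Sham 1), Gm38393 and Arhgef11 (Sham 4), Gm28036 (Sham 2), Mboat7 (HF-HI 5), Tesk1 (HF-HI 3), Naa60 ENSMUST00000115860 (HF-HI 2) and Frrs1l (HF-HI 7). The Frrs1l NMD transcript was at 3.5 to 227 normalized counts (median 169) in the Sham libraries and 0 to 326 (median 100.3) in the HF-HI libraries, while the coding transcript of the gene was at 5027 ± 354 in Sham and 5123 ± 225 in HF-HI.

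By the place of the stop codon, the NMD transcripts with a stop codon inside coding-transcript exons had a median of 292 normalized counts and 5 of 80 with p under 0.05, all higher in HF-HI. Those with a stop codon outside coding exons had a median of 229 and 3 higher and 2 lower of 48. Those that share a stop codon with a coding transcript had a median of 254 and 1 higher and 2 lower of 18. Over all transcripts, 4.94% were higher and 3.9% lower at that threshold, and the differences between these classes were not tested.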
